A study of Bos taurus with 15 samples.

Results

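A set of 130 genes was raised in the lactating mammary gland of dairy cows at both 12 h and 24 h after a single injection of dexamethasone (DEX), a synthetic glucocorticoid, and was near its starting level at 72 h. The members were chosen by their measured values in cows 2, 3 and 4. The change of a gene was the log2 of its normalized count plus 0.5 in a library, minus the same quantity at 0 h in the same cow, averaged over the 3 cows. A member had to average at least 4 normalized counts in the 12 libraries of these cows, a change of 0.8 to 4.3 at both 12 h and 24 h, a change above 0 in each cow at both times, and a change between -0.5 and 0.5 at 72 h. Of 24616 Ensembl identifiers in the file, 13525 had a read in these libraries and 4795 reached the mean of 4. Both changes were at least 0.8 in 190 of these, and 184 of the 190 stayed at or below 4.3. Each cow was above 0 at both times in 171, and the condition at 72 h left 130. Another 51 genes met every condition except the mean of 4, which is 181 genes in all without it, and they were not followed.

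The study asked how mammary gene expression changes while milk yield is suppressed by a glucocorticoid and then recovers. Non-pregnant Holstein cows in their second lactation received 40 mg of DEX by intramuscular injection, and needle biopsies were taken immediately before the injection (0 h) and at 12, 24 and 72 h. All cows were treated, so each cow served as its own baseline and no untreated cows were sampled in parallel. Each time was taken from a different gland of the udder, in an order that every cow shared. The time post-DEX and the gland therefore cannot be told apart. By the schedule of the study, DEX was injected in the evening, so 12 h fell in the morning and the other times in the evening. Time of day therefore cannot be told apart from time post-DEX when 12 h is compared with another time. All cows also received ampicillin over the biopsy days. Cows 2, 3 and 4 each gave 4 libraries, and cow 1 gave 3, at 0, 12 and 24 h, since it has no library at 72 h. According to the study, a cow fell ill after treatment and was withdrawn before the last biopsy. The labels do not say which, but cow 1 alone lacks that biopsy, so its 24 h values may come from the sick animal. Cow 1 was kept out of the rule and was used as a check.

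Glucocorticoids enter cells and bind the glucocorticoid receptor, a transcription factor held in the cytoplasm by heat shock chaperones until hormone arrives. The bound receptor moves to the nucleus, where it raises transcription of some genes by binding DNA directly and lowers that of others, often by acting on other transcription factors. Some genes respond within hours as direct targets, and others follow later through the products of the first. In the mammary gland, glucocorticoids act together with prolactin and insulin to maintain milk protein synthesis, and high doses reduce milk yield in cows. Identifiers could not be matched to gene names, so the members are described by their values, and their functions and sequences are not given here. Members are numbered from 1, with the largest mean of the 12 h and 24 h changes, to 130, with the smallest, and identifiers are given for 4 of them.

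RNA was measured with 3' tag sequencing, in which each read comes from the end of a transcript, so levels are not raised by transcript length. Libraries held 1804120 to 6228132 reads assigned to genes. Cow 4 at 0 h was the shallowest, and a single read there is worth 0.579 normalized counts. The 2 most abundant genes took 47.2% to 54.4% of the reads of each library. As epithelial and other cell type markers could not be looked up without gene names, the cell types in the biopsies were not checked. In bulk tissue, a change in the share of a cell type and a change in RNA per cell cannot be told apart.

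Summed over all 130 members, the level was 4044 normalized counts in cow 2, 4035 in cow 3 and 4098 in cow 4 at 0 h. At 12 h the sums were 11450, 13368 and 12493, and at 24 h they were 12415, 10475 and 11400 in the same order. By 72 h they were 3525, 3898 and 3849. The 3 cows thus started almost level, with 4059 ± 34.4 (SD, n = 3 cows), and stood at 12437 ± 960 at 12 h, 11430 ± 970.4 at 24 h and 3757 ± 203 at 72 h. The summed level was 3.06-fold that of 0 h at 12 h, 2.82-fold at 24 h and 0.926-fold at 72 h. These values of cows 2 to 4 were used by the rule and carry no test. Cow 1, which was not used, had a sum of 4509 at 0 h, 13813 at 12 h and 10188 at 24 h, which is 3.06-fold and 2.26-fold its own 0 h. The 5 most abundant members made up 37.5% of the sum at 0 h.

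**Figure D1:**
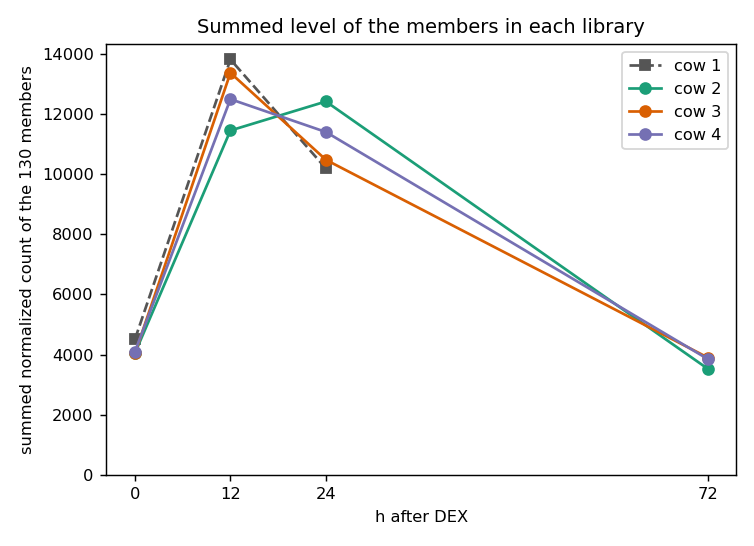
Summed normalized count of the 130 members (vertical axis, from 0) against hours post-DEX, 1 line per cow, with cow 1 dashed and in squares. All 4 cows lie between 4035 and 4509 at 0 h and between 10188 and 13813 at 12 h and 24 h, and cow 2 alone is higher at 24 h than at 12 h.

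Gene by gene, the changes of the members ran from 0.82 to 3.99 at 12 h, with a median of 1.47 and quartiles of 1.11 and 1.94 on the log2 scale. At 24 h they ran from 0.80 to 3.38, with a median of 1.25 and quartiles of 0.96 and 1.61. The median at 72 h was 0.0026, with quartiles of -0.19 and 0.20. For comparison, the other 4665 genes with a mean of at least 4 had medians of 0.058 at 12 h, 0.031 at 24 h and 0.025 at 72 h. The change was at least 2 on the log2 scale in 30 members at 12 h and in 18 at 24 h, and in 13 members at both. It was under 1 at both times in 10 members.

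The 3 cows of the rule gave similar sizes. The rule itself favours this, as it required each of them to be above 0 at both times. Median changes of the members at 12 h were 1.47, 1.60 and 1.52 in cows 2, 3 and 4, and those at 24 h were 1.31, 1.16 and 1.33. The largest of the 3 changes at 12 h was that of cow 3 in 54 members, cow 2 in 40 and cow 4 in 36. At 24 h it was that of cow 2 in 54 members, cow 4 in 48 and cow 3 in 28. The SD of a member's change over the 3 cows had a median of 0.45 at 12 h and 0.41 at 24 h.

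**Figure D2:**
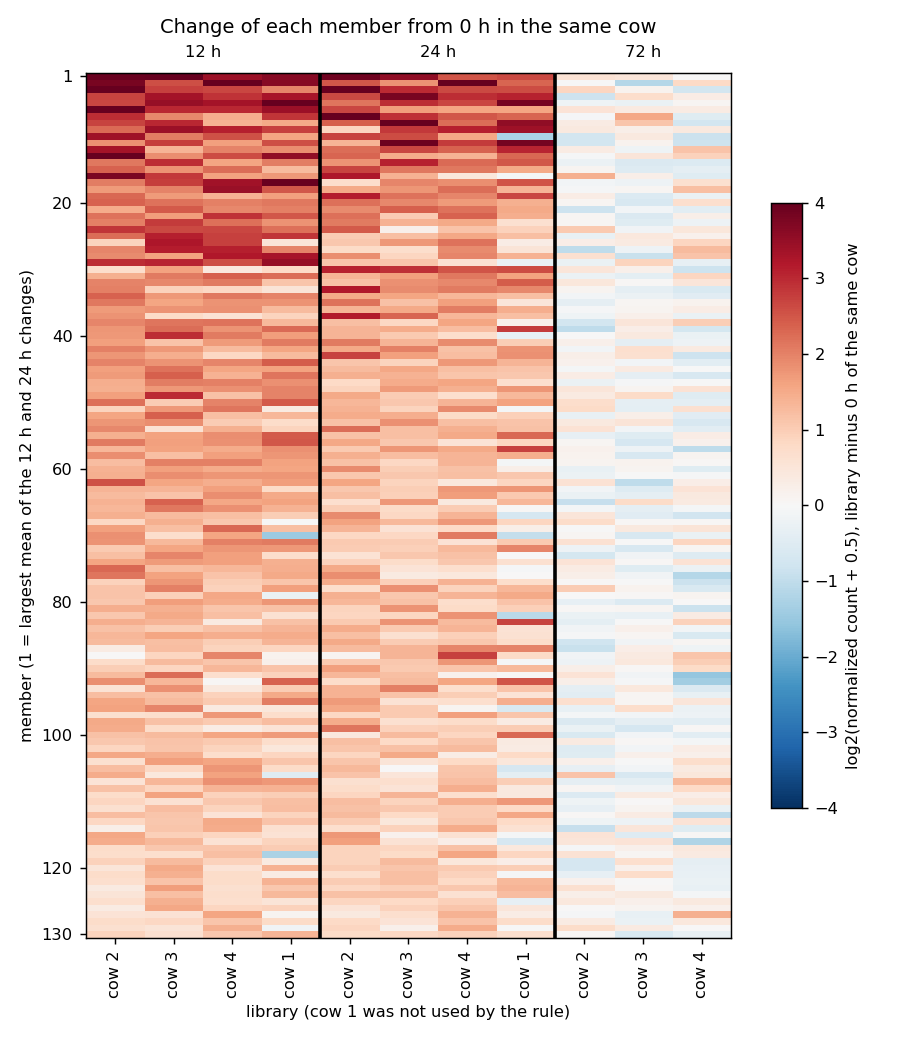
Change from 0 h in the same cow, as log2(normalized count + 0.5), for each of the 130 members (rows, ordered by the mean of the 12 h and 24 h changes in cows 2 to 4) in each library (columns, in blocks of 12 h, 24 h and 72 h). Red is above 0 h and blue below, and the colours stop at 4 and -4. Cows 2, 3 and 4 are above 0 at 12 h and 24 h by the rule, whereas cow 1 holds blue rows, more of them at 24 h (19 members) than at 12 h (6 members).

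Levels before DEX differed widely between members. The mean of cows 2 to 4 at 0 h ran from 0.559 to 597 normalized counts, with a median of 9.81 and quartiles of 4.78 and 25.6. It was at least 100 in 8 members and under 5 in 35. The other genes with a mean of at least 4 had a median of 12.7 at 0 h, a figure that the filter sets differently for genes that later rise. Reads were few at 0 h for many members: 43 had under 10 reads in at least 1 library of 0 h in cows 2 to 4, and for 40 of them that held for the shallow library of cow 4. There were 3 members with no read in a library of 0 h, where up to 3 reads, or 1.74 normalized counts in the shallowest library, could have been missed. These limits speak of counting error alone, as PCR copies of a molecule were not told apart.

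The largest mean change belonged to member 1, listed as ENSBTAG00000047502. It had 24.4, 26.5 and 52.7 normalized counts at 0 h in cows 2, 3 and 4, then 384, 640.1 and 569.95 at 12 h. At 24 h it had 369, 317 and 306, and at 72 h 36.3, 37.1 and 53.5. Every library at 12 h and 24 h lay above every library at 0 h and 72 h, and in each cow 24 h was below 12 h. Its change was 3.98 at 12 h, 3.33 at 24 h and 0.36 at 72 h. Cow 1 had 40.9, 516 and 256 normalized counts at 0, 12 and 24 h.

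Member 5 had the highest level before DEX among the members with the 10 largest changes. It had 52.2, 42.1 and 38.8 normalized counts at 0 h in cows 2, 3 and 4, 338, 474.5 and 396 at 12 h, 232, 329 and 249 at 24 h and 46.1, 35.1 and 41.4 at 72 h. The 12 h and 24 h libraries all stood apart from those of 0 h and 72 h. In cow 1 it had 20.7, 373 and 304 at 0, 12 and 24 h, changes of 4.14 and 3.84, which exceeded the means of the other cows (3.17 and 2.59). Member 9 had 19.5, 16.2 and 13.3 normalized counts at 0 h, 95.2, 179 and 117 at 12 h, 35.8, 119 and 119 at 24 h and 25.7, 19.2 and 17.6 at 72 h. The low value at 24 h was that of cow 2, and cow 1 was the highest of all at that time, with 199 normalized counts after 18.4 at 0 h and 124 at 12 h.

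Member 2 went from 3.29, 5.71 and 1.74 normalized counts at 0 h in cows 2, 3 and 4 to 52.4, 36.9 and 105 at 12 h, and had 20.5, 20.9 and 54.5 at 24 h and 3.26, 2.32 and 3.345 at 72 h. Cow 4 was the highest at both 12 h and 24 h, from a 0 h value that rested on 3 reads. In cow 1 it went from 1.53 to 24.7 at 12 h and 9.72 at 24 h. Member 6 had 3.51, 4.21 and 6.37 at 0 h, 66.3, 37.7 and 54.9 at 12 h, 25.1, 14.5 and 20.2 at 24 h and 5.30, 5.57 and 8.15 at 72 h. In each cow the 24 h value lay between those of 12 h and 0 h. Cow 1 gave 5.11, 59.8 and 16.3 normalized counts at 0, 12 and 24 h.

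Members 3 and 4 were nearly undetected before DEX. Member 3 had 0, 1.504 and 1.74 normalized counts at 0 h in cows 2, 3 and 4, from 0, 5 and 3 reads, then 16.1, 12.7 and 13.6 at 12 h and 10.8, 15.3 and 13.5 at 24 h. At 72 h it had 0.408, 1.70 and 0.836. Its 12 h and 24 h values overlapped in these cows, while cow 1 had 3.32 at 0 h, 14.4 at 12 h and 22.6 at 24 h. Member 4 had 1.10, 0 and 0.579 at 0 h, from 5, 0 and 1 reads, 9.91, 4.51 and 7.41 at 12 h, 9.36, 6.40 and 7.82 at 24 h and 0.408, 0.309 and 0.836 at 72 h. With so few reads at 0 h the size of these changes depended on the constant added before taking logs: for member 4 the change at 12 h was 2.97 with 0.5, 4.02 with 0.1 and 1.84 with 2. Cow 1 had 1 read of member 4 at 0 h, 38 at 12 h and 35 at 24 h.

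Members 7, 8 and 10 complete the 10 largest. Member 7 had 0.439, 1.203 and 7.53 normalized counts at 0 h in cows 2, 3 and 4, 6.83, 5.95 and 21.2 at 12 h, 15.4, 12.4 and 44.2 at 24 h and 0.408, 4.49 and 5.23 at 72 h. Cow 4 was the highest at each time, and its 0 h value lay above the 12 h values of the other cows, so the change shows within cows and not between them. Cow 1 had no read of it at 0 h, then 3.13 normalized counts at 12 h and 2.01 at 24 h. Member 8 had 0.219, 0.602 and 3.47 at 0 h, 4.19, 8.41 and 9.82 at 12 h, 3.30, 17.7 and 18.3 at 24 h and 0.408, 1.86 and 1.88 at 72 h. In cow 1 this gene had 0.511, 2.39 and 11.4 at 0, 12 and 24 h. Reads at 0 h in cows 2, 3 and 4 were 2, 4 and 13 for member 7 and 1, 2 and 6 for member 8. The size of their changes therefore also depends on the constant added before taking logs. Member 10 had 3.73, 5.71 and 4.63 at 0 h, 43.4, 25.4 and 29.7 at 12 h, 27.1, 37.7 and 14.6 at 24 h and 2.04, 7.58 and 2.30 at 72 h. It had the lowest 24 h change of all members in cow 1, where it had 15.1, 45.8 and 6.03 normalized counts at 0, 12 and 24 h.

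**Figure D3:**
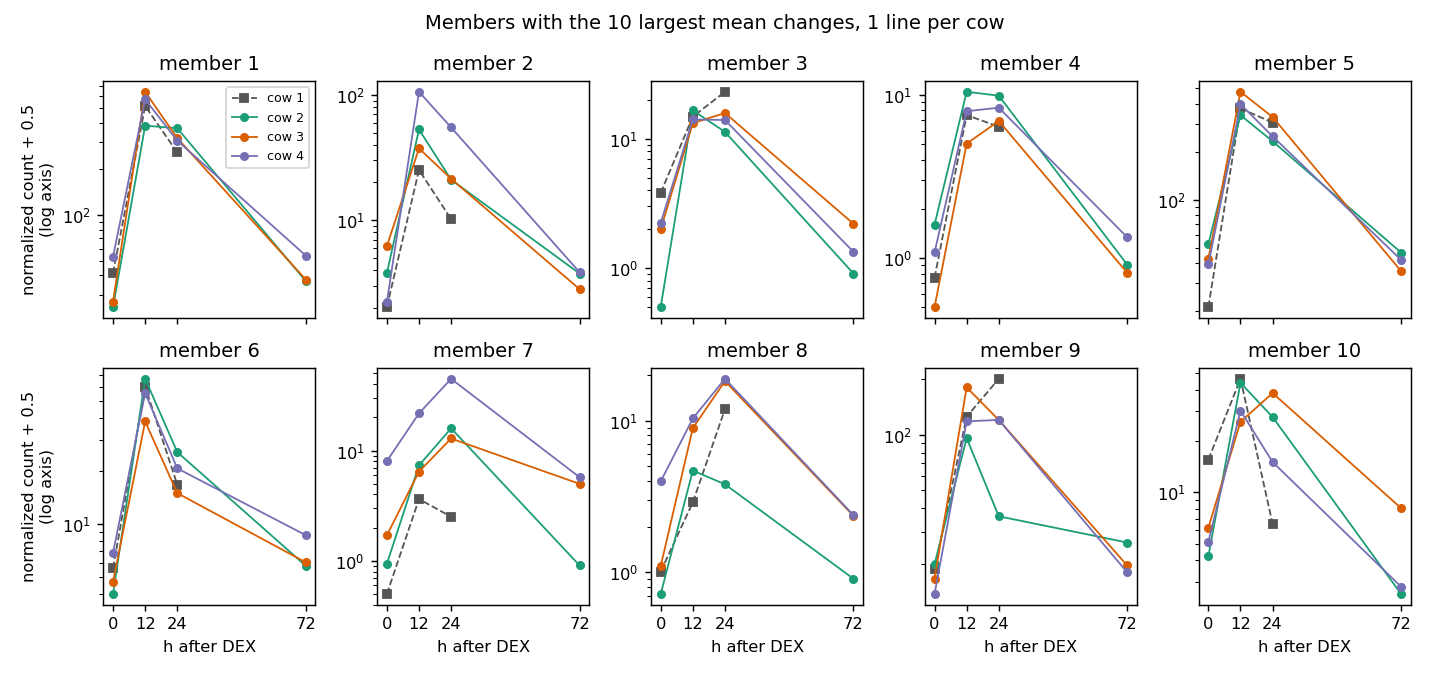
Normalized count plus 0.5 (log axis, different in each panel) against hours post-DEX for the members with the 10 largest mean changes, 1 line per cow, with cow 1 dashed and in squares. Cows 2, 3 and 4 are close together in members 1 and 5, whereas cow 4 runs above cows 2 and 3 in member 7 and cow 1 is below its 0 h level at 24 h in member 10.

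The members with the highest levels before DEX had a smaller mean of the 12 h and 24 h changes than these 10, by which members are numbered. Member 60, the most abundant, had 551, 631 and 609 normalized counts at 0 h in cows 2, 3 and 4, 1431, 1983 and 1713 at 12 h, 2022, 1252 and 1377 at 24 h and 449, 687 and 438 at 72 h. The 12 h and 24 h libraries were all above those of 0 h and 72 h, but the higher time was 24 h in cow 2 and 12 h in cows 3 and 4. Cow 1 had 659.9 at 0 h, 1965 at 12 h and 779.8 at 24 h. Member 21 had 508, 202 and 277 at 0 h, 1412, 1099 and 1052 at 12 h, 1902, 1066 and 1263 at 24 h and 286, 189 and 209 at 72 h. Cow 2 was the highest of these 3 cows at every time, and cow 1 had 371, 1511 and 1062 at 0, 12 and 24 h. Member 60 reached 11025 reads in a library, the most of any member.

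Members 86, 102 and 111 were the next in level. Member 102 had 235, 234 and 244 normalized counts at 0 h in cows 2, 3 and 4, 427, 506 and 449.9 at 12 h, 504, 527 and 593 at 24 h and 165, 218 and 299.6 at 72 h. In cow 1 it started higher, at 327, and had 449 at 12 h and 409 at 24 h. Member 111 had 254, 197 and 229 at 0 h, 396, 468 and 428 at 12 h, 579, 418 and 459.5 at 24 h and 201, 214 and 194 at 72 h. Cow 1 had 253 at 0 h, 591 at 12 h and 444 at 24 h, within or above the range of the other cows. Member 86 had 117, 114 and 168 at 0 h, 279, 264 and 330.3 at 12 h, 334, 231 and 357 at 24 h and 66.8, 103 and 179 at 72 h, and in cow 1 it went from 208 to 538 and 346. Changes of these 3 members lay between 0.93 and 1.205 at 12 h and 24 h.

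The limits of the rule cut through a continuous range of values. The members just inside the limit of 0.8 were 104, 105 and 87, whose smaller change was 0.805, 0.814 and 0.817. Just outside, with all other conditions met, lay genes with a smaller change of 0.789 and 0.786 (2 genes). At 72 h, the member closest to the limit had a change of 0.497, and the nearest gene left out had 0.503. Of the 171 genes that met the conditions at 12 h and 24 h, 41 were left out by the condition at 72 h.

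Cow 1 gave values that the rule had not used. At 12 h, 124 of the 130 members (95.4%) were above their 0 h level in this cow, against 52.8% of all genes with a mean of at least 4. At 24 h it was 111 members (85.4%), against 46.6% of all. At both times it was 108 (83.1%), against 32.7%, and 68 members (52.3%) were at least 0.8 above 0 h at both times, against 4.8%. The median change of the members in cow 1 was 1.40 at 12 h (quartiles 0.88 and 1.98) and 1.03 at 24 h (quartiles 0.38 and 1.57), while for the other genes it was 0.026 and -0.075. With a single cow these are counts and medians with no test, genes of one library are not independent replicates, and both changes share the 0 h library of cow 1.

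The size of a member's change in cow 1 followed that in the other cows in part. Pearson's r over the 130 members between cow 1 and the mean of cows 2 to 4 was 0.738 at 12 h and 0.627 at 24 h, as a description, since all points share the same libraries and the rule limits the range on one axis. The 12 h change of cow 1 lay within the range of the 3 other cows in 71 members, above it in 25 and below it in 34 (26.2%, against 26.6% of the other genes). At 24 h it lay below that range in 67 members (51.5%, against 37.9% of the other genes), within it in 39 and above it in 24. At 24 h cow 1 thus had the lowest change of the 4 cows for most members. Since the rule selected high changes in cows 2 to 4 and not in cow 1, these shares do not show that cow 1 responded less.

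There were 22 members at or below their 0 h level in cow 1 at 12 h or 24 h, of which 6 were so at 12 h, 19 at 24 h and 3 at both. Member 70 was the lowest at 12 h and stayed below 0 h at 24 h, with 12.0, 4.05 and 6.03 normalized counts at 0, 12 and 24 h in cow 1. In cows 2, 3 and 4 it had 4.61, 12.3 and 8.10 at 0 h, 17.6, 20.3 and 25.3 at 12 h, 8.62, 22.2 and 35.9 at 24 h and 4.89, 7.74 and 6.69 at 72 h. The 0 h value of cow 1 was close to the highest of the other cows, and its later libraries were lower than theirs. Member 118 was below 0 h at 12 h only, with 3.84, 1.29 and 7.37 in cow 1, of which the 12 h value rested on 7 reads. Cows 2, 3 and 4 had 3.07, 4.21 and 2.32 normalized counts of it at 0 h, 5.29, 6.975 and 6.01 at 12 h, 6.05, 7.46 and 7.82 at 24 h and 4.89, 4.49 and 3.14 at 72 h.

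In 16 of the 22, cow 1 was above 0 h at 12 h and at or below it at 24 h. Member 82 went from 16.4 to 25.03 and then 7.54 normalized counts in cow 1. In cows 2, 3 and 4 it had 9.00, 12.9 and 10.998 at 0 h, 19.6, 37.5 and 25.9 at 12 h, 16.7, 24.1 and 39.1 at 24 h and 7.34, 10.5 and 13.8 at 72 h. Cow 1 was thus within the range of the others at 12 h and below it at 24 h. Member 116 went from 10.7 to 20.4 and then 6.53 in cow 1, beside 5.93, 6.62 and 9.84 at 0 h, 17.6, 16.8 and 14.8 at 12 h, 19.4, 10.2 and 11.9 at 24 h and 8.56, 9.90 and 3.97 at 72 h in the other cows. Member 105 went from 18.7 to 32.4 and then 11.6 in cow 1, beside 12.3, 14.7 and 7.53 at 0 h, 29.5, 26.5 and 26.7 at 12 h, 31.0, 14.9 and 17.0 at 24 h and 9.78, 13.6 and 9.83 at 72 h. Both were highest in cow 1 at 0 h and 12 h and lowest there at 24 h. Member 67 went from 6.14 to 12.7 and then 3.69 in cow 1, while cows 2, 3 and 4 had 9.22, 16.8 and 8.10 at 0 h, 25.3, 41.6 and 19.4 at 12 h, 35.2, 30.3 and 21.6 at 24 h and 13.0, 12.2 and 4.60 at 72 h. Cow 1 was the lowest cow at each of its times for this gene. Member 96 had 4.86, 6.81 and 3.02 in cow 1, from 19, 37 and 18 reads, and 2.63, 1.80 and 5.21 at 0 h, 9.03, 8.41 and 6.81 at 12 h, 8.62, 4.26 and 5.66 at 24 h and 2.04, 3.25 and 4.39 at 72 h in the others.

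**Figure D4:**
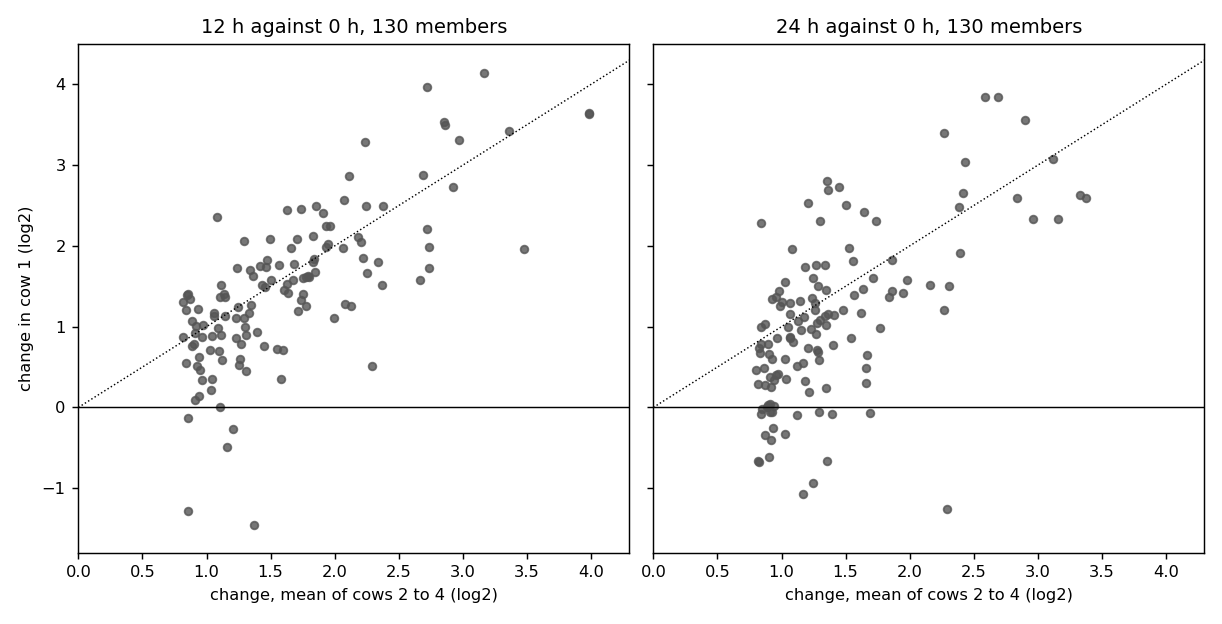
Change in cow 1 (vertical axis, log2) against the mean change of cows 2 to 4 (horizontal axis, log2) for the 130 members, at 12 h (left) and 24 h (right). The dotted line marks equal changes and the solid line no change in cow 1. At 12 h 124 members are above the solid line, and at 24 h 111 are.

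Before DEX, members were slightly higher in cow 1 than in the others, by a median of 0.15 on the log2 scale, against 0.033 for the other genes. Cow 1 was higher than each of cows 2 to 4 at 0 h in 46 members (35.4%, against 26.8% of the other genes) and lower than each in 26 (20%, against 22.3%). The rule used the 0 h libraries of cows 2 to 4, where a low value raises the change, so these shares are a description of the check and not of cow 1 alone.

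The difference of 24 h from 12 h uses none of the 0 h libraries and asks whether members stood higher at the earlier or the later time. The spread in its test, however, was estimated from the libraries of cows 2 to 4 at all time points, 0 h and 72 h included. Members were on balance lower at 24 h. In the mean of cows 2 to 4, 89 of the 130 were lower at 24 h than at 12 h and 41 were higher, with a median difference of -0.21 on the log2 scale, against -0.0046 for the other genes. The difference was within 0.5 in 81 members, at least 0.5 lower in 39 and at least 0.5 higher in 10. All 3 cows were lower at 24 h in 46 members (35.4%, against 20.4% of the other genes), and all 3 were higher in 17 (13.1%, against 23.3%). The rule bounds the change at both times from 0.8 to 4.3, which limits the size of this difference but treats the 2 times alike. It also chose the members by large changes in these same 12 h and 24 h libraries, so shares beside the other genes are a description.

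In limma, fitted over 13525 genes with libraries of a cow allowed to correlate, 4 members were lower at 24 h than at 12 h and 1 was higher at an adjusted p under 0.05. Of all genes tested, 0.384% were lower and 0.318% higher by the same test, and among the genes with a mean of at least 4 the shares were 0.918% and 0.834%, against 3.08% and 0.769% of the members. Those genes were not chosen for large changes at these times as the members were, so the shares are not like for like. At an unadjusted limma p under 0.05, 31 of the 130 members were lower, where 6.26% of all genes were, and 4 were higher, where 5.12% of all genes were. These 2 percentages are over all 13525 genes, most of them with a mean under 4, which no member has. A fit that took cow as a fixed block called 8 members lower and 3 higher, and 1.73% of all genes in either direction. The calls rest on all 3 cows: 1 member was called without cow 2, 2 without cow 3 and 0 without cow 4, while calls over all genes went down to 12, 14 and 2. The differences themselves kept their direction in these fits, and ran from -1.40 to -1.37 in member 6, -1.56 to -1.19 in member 25, -1.97 to -1.90 in member 29, 1.71 to 2.25 in member 30 and -1.65 to -0.89 in member 40. A miss of the threshold does not show that a member held its level between these times.

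The clearest fall was that of member 29, listed as ENSBTAG00000009050. It had 5.05, 3.31 and 6.95 normalized counts at 0 h in cows 2, 3 and 4, 42.3, 31.2 and 44.1 at 12 h, 11.4, 7.67 and 10.8 at 24 h and 4.08, 6.50 and 5.44 at 72 h. Every 12 h library was above every 24 h library, and the 24 h libraries were in turn above those of 0 h and 72 h. The log2 difference of 24 h from 12 h was -1.93 ± 0.27 (standard error), with an adjusted p of 0.00291 in limma that ran from 3.917e-13 to 0.124 over the alternatives. In cow 1 it had 4.09 at 0 h, 51.3 at 12 h and 3.35 at 24 h, the last of which is below its 0 h value.

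Member 25, listed as ENSBTAG00000005039, fell from 30.6, 45.7 and 33.5 normalized counts at 12 h to 13.0, 11.7 and 14.6 at 24 h in cows 2, 3 and 4, after 6.15, 4.81 and 4.63 at 0 h, and had 4.89, 6.65 and 5.23 at 72 h. Its 24 h libraries lay between the 12 h and the 0 h libraries in every cow. Its log2 difference was -1.43 ± 0.23 (standard error; adjusted p of 0.00839 in limma, 1.243e-07 to 0.166 over the alternatives). Cow 1 had 8.44, 65.0 and 20.1 at 0, 12 and 24 h. Member 6, described above, had a log2 difference of -1.38 ± 0.27 (standard error; adjusted p of 0.0252 in limma, 3.531e-08 to 0.278 over the alternatives).

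Member 40 was the last of the members called lower. It had 10.8, 9.93 and 14.5 normalized counts at 0 h, 36.6, 79.6 and 63.3 at 12 h, 28.1, 20.9 and 23.7 at 24 h and 10.6, 13.2 and 11.9 at 72 h. Cow 3 fell the most and cow 2 the least, and its log2 difference was -1.23 ± 0.25 (standard error; adjusted p of 0.0268 in limma, 4.626e-07 to 0.354 over the alternatives). In cow 1 it had 18.2, 58.7 and 14.4 at 0, 12 and 24 h.

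Member 30, listed as ENSBTAG00000030669, was the only member called higher at 24 h than at 12 h in this fit. It had 8.56, 4.81 and 12.2 normalized counts at 0 h in cows 2, 3 and 4, 14.1, 15.6 and 16.4 at 12 h, 76.1, 39.4 and 72.0 at 24 h and 12.2, 5.57 and 6.69 at 72 h. The 12 h values were close together and above those of 0 h, and every 24 h library was above every 12 h library. Its log2 difference was 1.93 ± 0.32 (standard error; adjusted p of 0.0111 in limma, 7.744e-16 to 0.223 over the alternatives). In cow 1 it had 7.67, 13.6 and 48.9 at 0, 12 and 24 h, so 24 h was higher than 12 h in 4 of 4 cows.

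**Figure D5:**
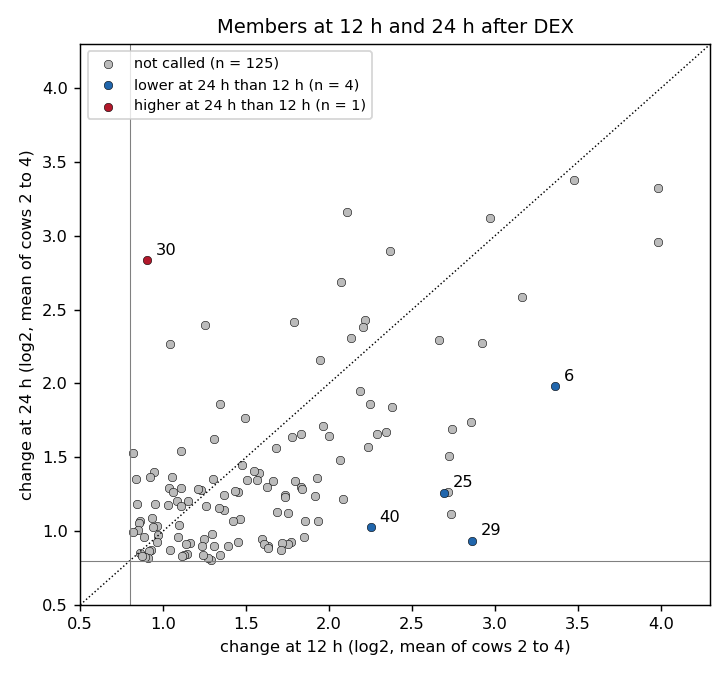
Change at 24 h (vertical axis) against change at 12 h (horizontal axis) for the 130 members, both as the mean of cows 2 to 4 on the log2 scale. Grey lines mark the limit of 0.8, the dotted line marks equal changes, and the members called lower (4, blue) or higher (1, red) at 24 h than at 12 h are numbered. There are 89 members below the dotted line and 41 above it.

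Cow 1 can be set beside this comparison too, since no library is shared. In cow 1, 90 of the 130 members were lower at 24 h than at 12 h, with a median difference of -0.43 on the log2 scale, against -0.070 for the other genes. The direction was that of cows 2 to 4 in 99 members (76.2%, against 64.5% of the other genes), and in 5 of the 5 members that passed the threshold. Pearson's r between the difference in cow 1 and that in cows 2 to 4 was 0.681 over the 130 members, as a description.

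The number of members depended on how libraries were scaled. With the deposited scaling, the median change from 0 h of all genes with a mean of at least 4, in the mean of cows 2 to 4, was 0.070 at 12 h and 0.046 at 24 h. Scaling each library to its total with the top 20 genes left out, that median was -0.016 at 12 h and -0.11 at 24 h, and 87 genes met the rule, all of them among the 130. With median-ratio scaling 127 genes met it, of which 125 were among the 130.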

How the data were processed

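Mammary biopsies of 4 cows (15 libraries) were sequenced with QuantSeq. After trimming (HTStream), alignment to UMD3.1 (STAR, version 2.6.0c) and counting per Ensembl gene, the authors deposited a signal of normalized counts, where the reads of a library are multiplied by 1 constant. The scaling method is not given in the sources used here. Dividing by that constant gave whole reads for 100% of values (tolerance 0.01). All columns were assigned to samples from their labels, and cow numbers pair the samples, since libraries of one number come from one animal (deviations from the time means correlated in 18 of 18 pairs, lowest r 0.149).

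The members and lists were chosen with earlier results of these data known. The 24 h and 12 h libraries were compared with limma (version 3.58.1, R 4.3.3) on log2(normalized count + 0.5), with lmFit, duplicateCorrelation by cow (consensus 0.0179), eBayes with a trend and Benjamini-Hochberg adjustment over the 13525 genes with a read in cows 2 to 4. Fold changes on this scale understate the change of low genes. The fit was repeated under 16 alternatives, among them DESeq2 (version 1.42.0) and edgeR (version 4.0.16) fitted to these reads, and under 1 more chosen after seeing the data.

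Members were to be given in every sample if they had 1 of the 10 largest mean changes or 1 of the 5 highest levels at 0 h, passed the threshold at 24 h against 12 h, or were among the 8 lowest in cow 1 among those at or below 0 h. The 3 nearest the limit are given by their smaller change. No identifier (0 of 24616) could be matched to a symbol in the RefSeq table (assembly ARS-UCD2.0), so the gene lists, cell type markers and promoter motifs of the design were not analysed here, and identifiers are printed for 4 members only.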

Additional observations from a re-analysis of the deposited data

Results flagged for a closer look

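For the named members and the sum, 87 groups of 4 libraries (4 cows at 0, 12 or 24 h) were searched for 1 library standing apart. Dixon's limit was passed in 4. Chance gives about 1 in 20, or 4.3, for independent groups not chosen by their values. These groups share libraries and their members were chosen by these values, so 4 beside 4.3 cannot show whether the flags arose by chance. At 0 h, cow 4 stood apart in member 7, at 7.53 normalized counts while the others had 0 to 1.203, and in member 8, with 3.47 against 0.219 to 0.602. The value of member 8 rests on 6 reads. Cow 1 stood apart at 0 h in member 102, with 327 normalized counts against 234 to 244, and in the sum of all members, with 4509 against 4035 to 4098. The rule used the 0 h libraries of the other cows, where a low value raises the change, and not that of cow 1. The choice of members can therefore favour a higher 0 h level in cow 1, and these flags do not show that cow 1 itself differed.

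Changes from 0 h to 12 h and to 24 h differed in 5 members by the limma test of 24 h against 12 h: the difference was -1.38 in member 6, -1.43 in member 25, -1.93 in member 29, 1.93 in member 30 and -1.23 in member 40. In each it had the same direction in 4 of 4 cows. The time post-DEX, the gland sampled and the time of day (morning at 12 h, evening at 24 h) cannot be told apart.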

How the results depend on the processing

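The count of members stayed within 1.5 times of 130 in the 9 alternatives run for it, although the genes were not always the same. It was 131 with a pseudocount of 0.1 (120 of the 130 kept) and 108 with 2 (98 kept). It was 161 with a mean of at least 1 and 96 with a mean of at least 10. It was 127 with median-ratio scaling and 87, the lowest, with the top 20 genes left out of the totals. When a cow was left out it was 119 to 152, with 88 to 105 of the 130 kept. The values of cow 1 moved by less than the spread between cows in 5 alternatives. At 24 h against 12 h, the 5 calls (1 higher, 4 lower) became 33 with edgeR (6 and 27, with 3.98% of all genes tested called), 20 with DESeq2 (3 and 17, with 2.33%), 18 with the libraries of cow 1 added (3 and 15, with 2.34%), 14 with limma-voom (3 and 11, with 1.30%), 18 with limma-voom on genes with a mean of at least 4, chosen after seeing the data (4 and 14, with 7.13%), 14 with limma on those genes (3 and 11, with 5.46%), 13 with a mean of at least 10 (3 and 10, with 7.97%), 8 with a pseudocount of 0.1 (3 higher, with 1.06%) and 11 with cow as a fixed replicate block (3 and 8, with 1.73%). Each of these fits kept the 5 calls, as did the fit with no replicate block (5 calls). When a cow was left out, 0 to 2 members were called, 0 to 1 higher and 0 to 1 lower, with 2 to 14 calls over all genes. No called difference of a named member changed direction. The cause of these changes was not tested. The alternatives for gene lists were not run, since no identifier could be named.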
